A study of Homo sapiens with 8 samples.

Results

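The genes described here are 40 genes of oxygen sensing and glucose breakdown, out of 28278 genes in the count table: 6 hypoxia-inducible factor (HIF) subunits and regulators, 9 HIF target genes outside glycolysis, 2 glucose transporters, 3 hexokinases and 20 further enzymes and carriers of the route between glucose and lactate. The rule names them by role, but they were chosen with earlier results of these data known, so the shares of them that were called describe these genes and are no independent support. All 40 had a row in the table, 37 had enough counts to be tested, and EGLN3, CA9 and CA12 did not.

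The study sequenced poly(A) RNA of SK-Hep1, a human cancer cell line taken from a liver adenocarcinoma, in 8 libraries that fall into 4 groups of 2. Silenced cells with rhETP (SR siCOL6A3 + rhETP) are sorafenib-resistant cells given siRNA against COL6A3 together with recombinant endotrophin. Silenced cells (SR siCOL6A3) are resistant cells given the COL6A3 siRNA alone. Resistant controls (SR siCtrl) and sensitive controls (SS siCtrl) received a control siRNA, and only the sensitive controls come from the sorafenib-sensitive cells. COL6A3 encodes the alpha-3 chain of collagen VI, endotrophin is the fragment cut from the C-terminal end of that chain, and sorafenib is a drug against liver cancer that inhibits kinases. All groups grew in serum-containing medium and share 1 labelled batch. There is 1 sensitive and 1 resistant population, so resistance and any other difference between these populations cannot be told apart. How resistance was obtained, the presence of sorafenib, the oxygen level, the siRNA sequence and the endotrophin dose and duration are unknown here.

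HIF is a transcription factor made of an oxygen-regulated alpha subunit (HIF1A or EPAS1) and a constitutive ARNT partner. In oxygen, EGLN prolyl hydroxylases mark the alpha subunit and the VHL ubiquitin ligase has it destroyed, so that much of HIF control acts on protein and not on the mRNA counted here. When oxygen falls, HIF raises glucose transporters, hexokinase 2, most glycolytic enzymes, lactate dehydrogenase A and the lactate exporter SLC16A3. Many tumour cells keep this programme on in oxygen, and hexokinase, which traps glucose in the cell as glucose 6-phosphate, opens the route.

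The libraries held 30461668 to 44116043 counts and detected 15301 to 16594 genes. Counts of replicates differed by more than counting noise, with a chi-square per degree of freedom of 15.0 to 18.4 within groups. The error of each value therefore rests more on the spread between replicates, estimated across groups and genes, than on counting. The siRNA target, COL6A3, stood at 65.9 and 71.3 CPM in silenced cells with rhETP, 42.7 and 45.0 in silenced cells, 135 and 136 in resistant controls and 17.8 and 19.7 in sensitive controls. It was lower in both silenced groups than in resistant controls (log2 fold change -1.63 ± 0.11 SE, adjusted p = 1.72e-09 without rhETP and log2 fold change -0.98 ± 0.11 SE, adjusted p = 1.14e-06 with it), as the labels say. Both libraries of silenced cells with rhETP lay above both libraries of silenced cells. Where rhETP was added to silencing, rhETP and a smaller drop of COL6A3 therefore cannot be told apart. Of 8 hepatocyte markers, ALB, APOA1 and TTR had no counts in any library, and the summed level of the list was 45.8 to 49.2 CPM in silenced cells with rhETP, 35.5 to 35.8 CPM in silenced cells, 17.6 to 30.5 CPM in resistant controls and 16.0 to 19.0 CPM in sensitive controls. Of 8 endothelial markers, EMCN had no counts in any library, and the summed level was 43.0 to 48.9 CPM in silenced cells with rhETP, 41.8 to 55.3 CPM in silenced cells, 62.4 to 76.7 CPM in resistant controls and 25.0 to 28.7 CPM in sensitive controls. Only 2 of the hepatocyte and 3 of the endothelial markers had enough counts to be tested. In resistant against sensitive controls the tested markers of each list did not all move the same way. There 2 of the 3 tested endothelial markers were called higher, where 6.52% of all tested genes were higher. The other tested endothelial marker and the tested hepatocyte markers were not called. Over the 8 libraries, 4 leukocyte and macrophage markers summed to 92.4 to 114 CPM, and 4 fibroblast and stellate markers to 17.5 to 35.4 CPM. The part of any of these lists in the results was not tested.

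The 5 promoter windows below belong to the hexokinases, which include the gene with the largest change, and to LDHA and ADM, HIF targets called in at least 3 comparisons. Each window covers 250 bases before and 50 bases after the RefSeq gene start (GRCh38.p14), all on the plus strand: chr10:69269750-69270049 for HK1, chr2:74833877-74834176 for HK2, chr10:69220082-69220381 for HKDC1, chr11:18394313-18394612 for LDHA and chr11:10304823-10305122 for ADM. Capitals mark the letters ACGTG or GCGTG on either strand, the core of the hypoxia response element.
HK1: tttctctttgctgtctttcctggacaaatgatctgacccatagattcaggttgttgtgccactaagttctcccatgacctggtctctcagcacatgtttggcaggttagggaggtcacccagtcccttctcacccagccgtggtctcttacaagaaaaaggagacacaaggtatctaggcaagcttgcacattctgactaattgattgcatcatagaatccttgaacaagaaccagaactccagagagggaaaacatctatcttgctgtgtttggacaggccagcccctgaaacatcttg
HK2: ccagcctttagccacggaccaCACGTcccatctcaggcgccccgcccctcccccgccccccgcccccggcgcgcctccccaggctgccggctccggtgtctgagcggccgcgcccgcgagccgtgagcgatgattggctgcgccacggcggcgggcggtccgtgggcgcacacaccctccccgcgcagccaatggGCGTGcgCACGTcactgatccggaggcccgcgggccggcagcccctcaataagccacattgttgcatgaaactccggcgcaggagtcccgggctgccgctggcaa
HKDC1: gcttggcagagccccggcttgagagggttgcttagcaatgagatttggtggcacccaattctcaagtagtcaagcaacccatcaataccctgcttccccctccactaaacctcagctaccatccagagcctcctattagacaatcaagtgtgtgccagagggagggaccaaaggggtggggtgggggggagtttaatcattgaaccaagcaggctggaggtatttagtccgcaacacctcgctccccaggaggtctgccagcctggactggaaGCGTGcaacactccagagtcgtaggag
LDHA: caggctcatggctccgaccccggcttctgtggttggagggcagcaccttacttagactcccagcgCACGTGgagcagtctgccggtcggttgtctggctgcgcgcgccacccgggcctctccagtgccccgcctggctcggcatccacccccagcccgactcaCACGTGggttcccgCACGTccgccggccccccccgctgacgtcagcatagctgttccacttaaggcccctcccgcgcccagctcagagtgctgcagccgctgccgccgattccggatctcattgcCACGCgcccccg
ADM: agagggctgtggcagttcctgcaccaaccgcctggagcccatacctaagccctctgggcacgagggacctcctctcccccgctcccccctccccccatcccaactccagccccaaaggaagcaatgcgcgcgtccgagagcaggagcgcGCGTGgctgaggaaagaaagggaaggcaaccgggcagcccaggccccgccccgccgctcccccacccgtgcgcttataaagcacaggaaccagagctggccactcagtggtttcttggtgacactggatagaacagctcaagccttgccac
LDHA held 6 matches at 4 separate places, since CACGTG reads ACGTG on both strands. HK2 held 3 matches, HKDC1 and ADM 1 each, and HK1, a gene with several transcript starts of which the table holds 1, had none in this window. A window was found for 33 of the 40 genes, and 25 of these 33 (75.8%) held at least 1 match, against 61.7% of 11741 windows of tested genes and 48.4% of all 27303 windows. The median GC content was 69.7% in the 33 windows, 65.0% in windows of tested genes and 58.3% in all windows. ACGTG alone was in 12 of the 33 windows (36.4%), against 25.8% of windows of tested genes. A match is a description of these letters and not evidence of binding.

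A gene was called changed when edgeR's quasi-likelihood test gave a Benjamini-Hochberg adjusted p under 0.05 over all 15684 genes tested. With 2 libraries a group, the p-values rest on the spread between libraries within groups, which the labels call biological replicates. That spread is pooled over the 4 groups and drawn toward that of genes of like abundance (17.4 prior against 4 residual degrees of freedom). In bulk RNA, fewer cells with a transcript and less transcript per cell cannot be told apart. Resistant controls against sensitive controls gave 15 of the 37 tested genes called (40.5%), 1 higher and 14 lower, where 15.8% of all tested genes were called (6.52% higher, 9.30% lower). Silenced cells against resistant controls gave 19 (51.4%), 8 higher and 11 lower, where 22.3% of all tested genes were called (11.4% higher, 10.9% lower). Silenced cells with rhETP against silenced cells gave 4 (10.8%), all higher, near the 7.77% of all tested genes called (4.41% higher, 3.36% lower). Silenced cells with rhETP against resistant controls gave 13 (35.1%), 10 higher and 3 lower, where 19.0% of all tested genes were called (10.1% higher, 8.93% lower). The median log2 fold change of the 37 genes was -0.23, -0.089, 0.092 and 0.024 in these 4 comparisons in turn, and that of all tested genes 0.012, 0.0042, 0.00097 and 0. The comparisons share groups, the last 3 in particular, so their counts are not independent of each other.

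Glycolytic genes are abundant, and abundant genes are called more often. Among the 6705 genes that averaged 1000 counts or more, 11 of 27 listed genes (40.7%) were called in resistant against sensitive controls, against 22.1% of those 6705 genes. The same counts were 17 (63.0%, against 36.6%) for silenced cells against resistant controls, 4 (14.8%, against 14.5%) for rhETP added to silencing, and 12 (44.4%, against 30.2%) for silencing with rhETP against resistant controls. The counts depended on single libraries. The libraries of silenced cells with rhETP are called rhETP replicate 1 and 2 from here on. Without resistant control replicate 1, fewer listed genes were called against sensitive controls and for silenced cells against resistant controls. The same held without rhETP replicate 2 for added rhETP, and without rhETP replicate 1 for silencing with rhETP against resistant controls. In each of these cases a group was left with 1 library, and fewer of all tested genes were called as well. The cause of these losses was not tested. The ranges for the listed genes and for all genes are given at the end.

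Summed CPM of 8 proliferation genes differed between the groups, at 2536 to 2602 in silenced cells with rhETP, 1737 to 1844 in silenced cells, 2894 to 2898 in resistant controls and 2468 to 2607 in sensitive controls. In resistant against sensitive controls 3 of the 8 were called higher, where 6.52% of all tested genes were higher. All 8 fell under silencing (10.9% of all genes lower), and 7 of 8 rose when rhETP was added (4.41% higher). In silenced cells with rhETP against resistant controls 5 fell (8.93% lower). The part of proliferation in the changes of the HIF and glycolysis genes was not tested.

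**Figure D1:**
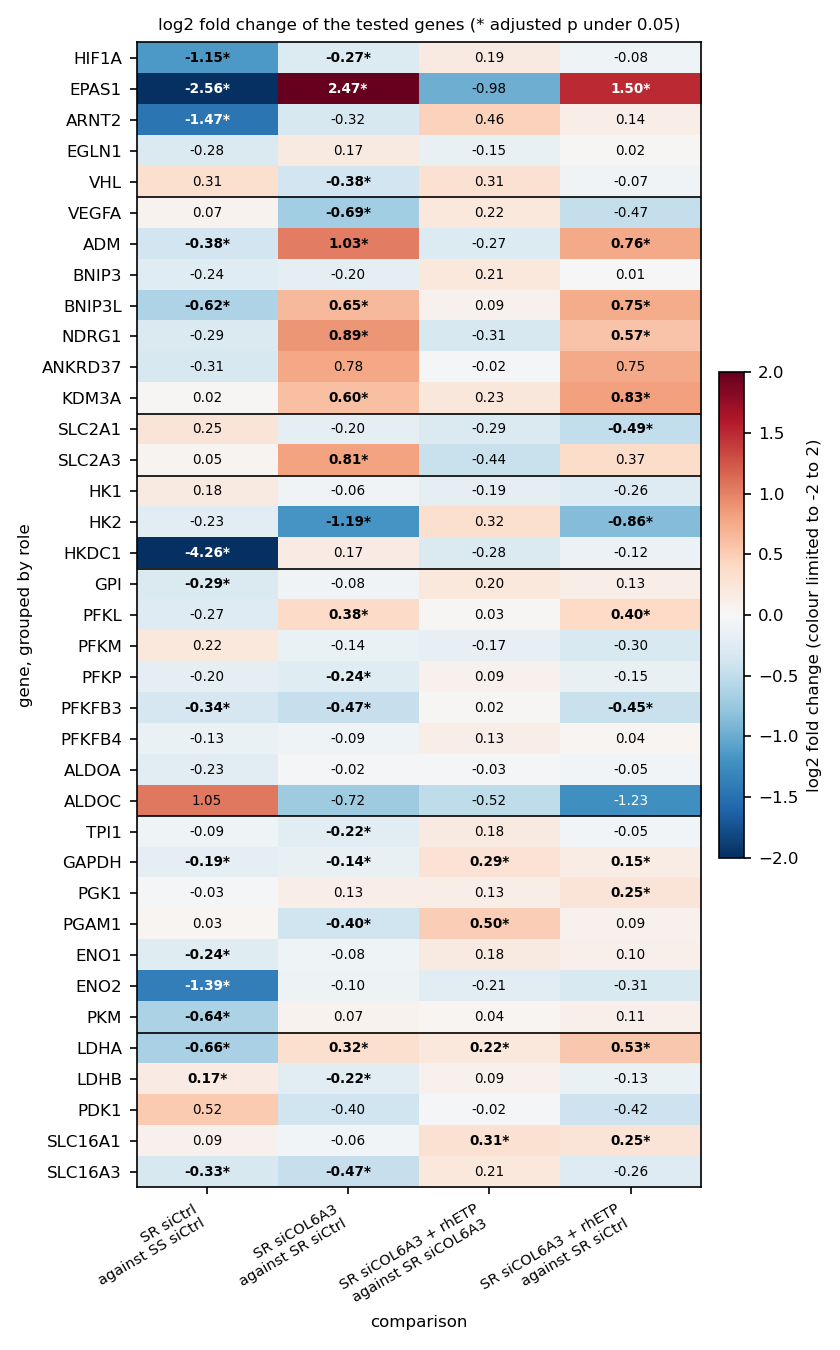
Log2 fold change of each of the 37 tested genes (rows, grouped by role) in the 4 comparisons (columns), written in each cell and coloured blue below 0 and red above 0; an asterisk marks an adjusted p under 0.05. In resistant against sensitive controls 14 of 15 asterisks stand on negative values, and the 4 asterisks for rhETP added to silencing stand on positive ones.

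The hexokinases differed from each other. HKDC1, hexokinase domain containing 1, a later-described member of the family, was far lower in every resistant group than in sensitive controls, HK2 fell under silencing, and HK1 was called nowhere. HKDC1 stood at 3.96 and 5.59 CPM in silenced cells with rhETP, 5.54 and 6.02 in silenced cells, 4.47 and 5.81 in resistant controls and 99.7 and 97.3 in sensitive controls. Sensitive controls were far above every resistant library, and the 3 resistant groups overlapped. Resistant controls were 19.1-fold lower than sensitive controls (log2 fold change -4.26 ± 0.20 SE, adjusted p = 5.91e-13), with a 95% confidence interval of -4.67 to -3.85 on the log2 scale. This was the largest change of any of the 37 genes in the 4 comparisons, and against resistant controls HKDC1 missed the threshold, at 0.17 (adjusted p = 0.615) for silencing and -0.12 (adjusted p = 0.767) for silencing with rhETP.

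HK2, the hypoxia-inducible and tumour-associated hexokinase, stood at 71.2 and 76.1 CPM in silenced cells with rhETP, 56.0 and 61.5 in silenced cells, 128 and 139.9 in resistant controls and 173 and 140.2 in sensitive controls. Both resistant control libraries lay above all 4 libraries of silenced cells, with or without rhETP. HK2 was 2.28-fold lower in silenced cells than in resistant controls (log2 fold change -1.19 ± 0.11 SE, adjusted p = 9.23e-08), and 1.82-fold lower in silenced cells with rhETP than in resistant controls (log2 fold change -0.86 ± 0.11 SE, adjusted p = 6.18e-06). Adding rhETP to silencing gave a log2 fold change of 0.32 (adjusted p = 0.0804), which missed the threshold, with an unadjusted 95% interval of 0.093 to 0.55. Resistant against sensitive controls gave -0.23 (adjusted p = 0.178). Both called HK2 values and the HKDC1 value held when any 1 of the 8 libraries was left out.

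HK1, the broadly expressed hexokinase of most tissues, stood at 133 and 125 CPM in silenced cells with rhETP, 144 and 150.5 in silenced cells, 155 and 153 in resistant controls and 141 and 130.4 in sensitive controls. It was called in no comparison, with log2 fold changes of 0.18 (adjusted p = 0.189) for resistant against sensitive controls, -0.063 (adjusted p = 0.704) for silencing, -0.19 (adjusted p = 0.232) for rhETP added to silencing and -0.26 (adjusted p = 0.0515) for silencing with rhETP against resistant controls. The unadjusted 95% interval was -0.0051 to 0.37 for the first of these and -0.44 to -0.068 for the last.

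Per length, the isoforms can be set side by side, in FPKM as the authors computed it. HK1 averaged 26.5 ± 1.10 FPKM in silenced cells with rhETP, 31.1 ± 0.816 in silenced cells, 32.2 ± 0.458 in resistant controls and 27.6 ± 1.53 in sensitive controls (SD, n = 2 each). HK2 averaged 12.6 ± 0.585 FPKM in silenced cells with rhETP, 10.3 ± 0.635 in silenced cells, 23.3 ± 1.30 in resistant controls and 26.5 ± 3.98 in sensitive controls. HKDC1 averaged 1.29 ± 0.313 FPKM in silenced cells with rhETP, 1.61 ± 0.0855 in silenced cells, 1.42 ± 0.251 in resistant controls and 26.5 ± 0.521 in sensitive controls. In sensitive controls the 3 isoforms therefore stood close together per length, while HKDC1 was a small fraction in every resistant group. The closeness rests on the lengths implied by the authors' FPKM, 4816 bases for HK1, 5794 for HK2 and 3652 for HKDC1. As shares of counts, not per length, sensitive controls held 34.7% HK1, 39.98% HK2 and 25.3% HKDC1. HK1 held 65.6% ± 2.40 in silenced cells with rhETP, 72.3% ± 0.685 in silenced cells, 56.6% ± 1.89 in resistant controls and 34.3% ± 0.670 in sensitive controls of the summed hexokinase FPKM. HK2 held 31.2% ± 1.61 in silenced cells with rhETP, 24.0% ± 0.620 in silenced cells, 40.9% ± 1.49 in resistant controls and 32.8% ± 2.48 in sensitive controls. HKDC1 held 3.21% ± 0.791 in silenced cells with rhETP, 3.74% ± 0.0651 in silenced cells, 2.49% ± 0.394 in resistant controls and 32.9% ± 1.82 in sensitive controls. The HK1 share was thus highest in silenced cells and lowest in sensitive controls, and the HK2 share was highest in resistant controls and lowest in silenced cells.

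The HK1 and HK2 shares of the 2 libraries of a group did not overlap those of the other group in any of the 4 comparisons. An exact two-sided permutation test of 2 libraries against 2 cannot go below p = 0.333, which all 8 of these comparisons gave. For HKDC1 the exact test gave the same p for resistant against sensitive controls and for silenced cells against resistant controls, and p = 0.667 in both comparisons of silenced cells with rhETP. The summed hexokinase level was 40.4 FPKM in silenced cells with rhETP, 43.1 in silenced cells, 56.9 in resistant controls and 80.7 in sensitive controls. HKDC1 and HK1 are neighbours on chromosome 10 of GRCh38 and lie on the plus strand: HKDC1 (69220332 to 69267552) ends 2447 bases before HK1 (69270000 to 69401882) begins. HK2 lies on chromosome 2 (74834127 to 74893359).

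**Figure D2:**
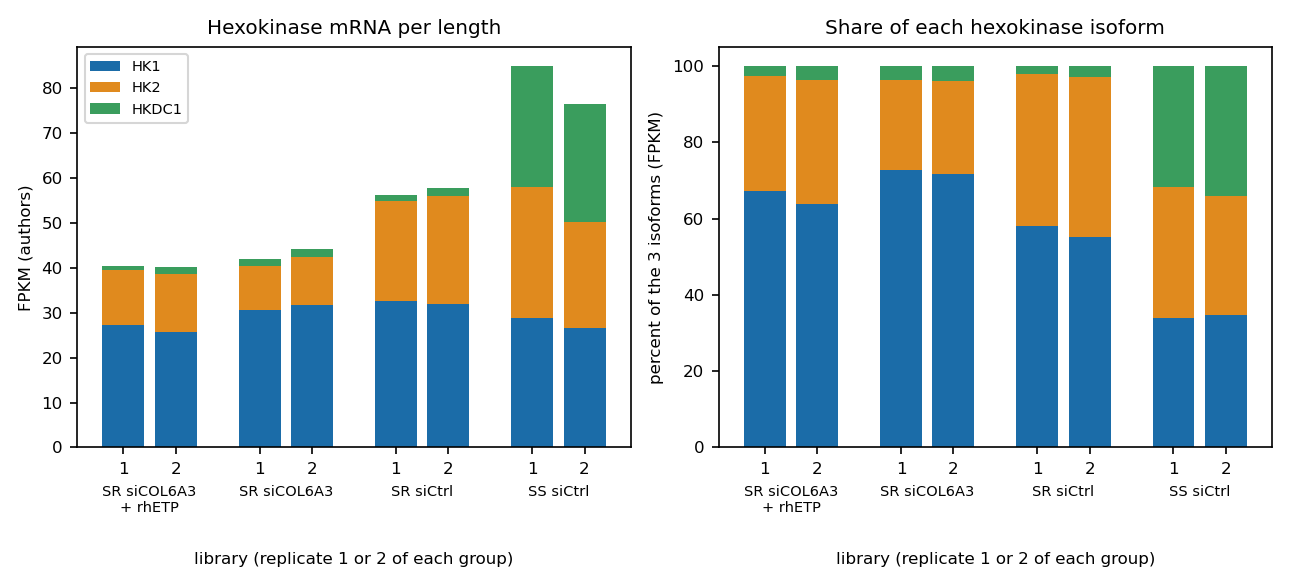
Hexokinase isoforms in each of the 8 libraries (x axis, 2 replicates a group), as FPKM and as percent of the summed FPKM of HK1, HK2 and HKDC1 (y axes). The HKDC1 layer is deep in the 2 sensitive control libraries only, and the HK2 layer is thinner in the 4 silenced libraries than in the resistant controls.

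Of the HIF factors and oxygen sensors, 3 of 5 tested genes fell in resistant against sensitive controls (9.30% of all tested genes were lower), and 1 rose and 2 fell in silenced cells against resistant controls (11.4% higher and 10.9% lower over all genes). None was called when rhETP was added to silencing (7.77% of all genes), and 1 rose in silenced cells with rhETP against resistant controls (10.1% higher). HIF1A, the main alpha subunit, stood at 83.7 and 84.7 CPM in silenced cells with rhETP, 72.6 and 75.4 in silenced cells, 88.9 and 89.3 in resistant controls and 201 and 196 in sensitive controls. All 6 resistant libraries lay below both sensitive ones. HIF1A was 2.22-fold lower in resistant than in sensitive controls (log2 fold change -1.15 ± 0.094 SE, adjusted p = 6.69e-09), a value that held with any 1 library left out. Silencing gave a smaller drop against resistant controls (log2 fold change -0.27 ± 0.094 SE, adjusted p = 0.0451), which sits at the threshold: it missed it whenever 1 of the 8 libraries was left out (-0.27 to -0.22).

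EPAS1, the HIF2 alpha subunit, was a low gene, at 7.43 and 3.37 CPM in silenced cells with rhETP, 13.1 and 8.28 in silenced cells, 2.01 and 1.83 in resistant controls and 11.9 and 10.8 in sensitive controls. Resistant controls were below every other library. They were 5.90-fold lower than sensitive controls (log2 fold change -2.56 ± 0.37 SE, adjusted p = 2.74e-05). Silenced cells were 5.56-fold higher than resistant controls (log2 fold change 2.47 ± 0.37 SE, adjusted p = 3.49e-05), and silenced cells with rhETP were also higher (log2 fold change 1.50 ± 0.36 SE, adjusted p = 0.00503). The last value rests on 1 library: without replicate 1 of the silenced cells with rhETP it was 0.81 and was not called (adjusted p = 0.213). EPAS1 and HIF1A thus both fell in resistant against sensitive controls, while under silencing EPAS1 rose and HIF1A, at the threshold, fell.

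ARNT2, an alternative partner of the alpha subunits, stood at 4.99 and 4.17 CPM in silenced cells with rhETP, 3.46 and 3.20 in silenced cells, 2.59 and 5.72 in resistant controls and 12.6 and 10.4 in sensitive controls. It was lower in resistant than in sensitive controls (log2 fold change -1.47 ± 0.37 SE, adjusted p = 0.00756), although the 2 resistant control libraries lay far apart, and without replicate 1 of them the value was -1.01 and was not called. VHL, the ubiquitin ligase subunit, stood at 91.2 and 77.5 CPM in silenced cells with rhETP, 65.8 and 70.7 in silenced cells, 88.8 and 88.8 in resistant controls and 71.3 and 71.6 in sensitive controls. It fell under silencing (log2 fold change -0.38 ± 0.11 SE, adjusted p = 0.0148), a call lost when any 1 of the 4 libraries compared was left out (-0.40 to -0.31). EGLN1, the main HIF prolyl hydroxylase, was called nowhere, with group means between 68.2 ± 2.95 CPM in resistant controls and 82.9 ± 7.82 CPM in sensitive controls. EGLN3, a hydroxylase that HIF itself raises, had counts in 1 sensitive control library only (0.389 CPM), so no fold is given.

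**Figure D3:**
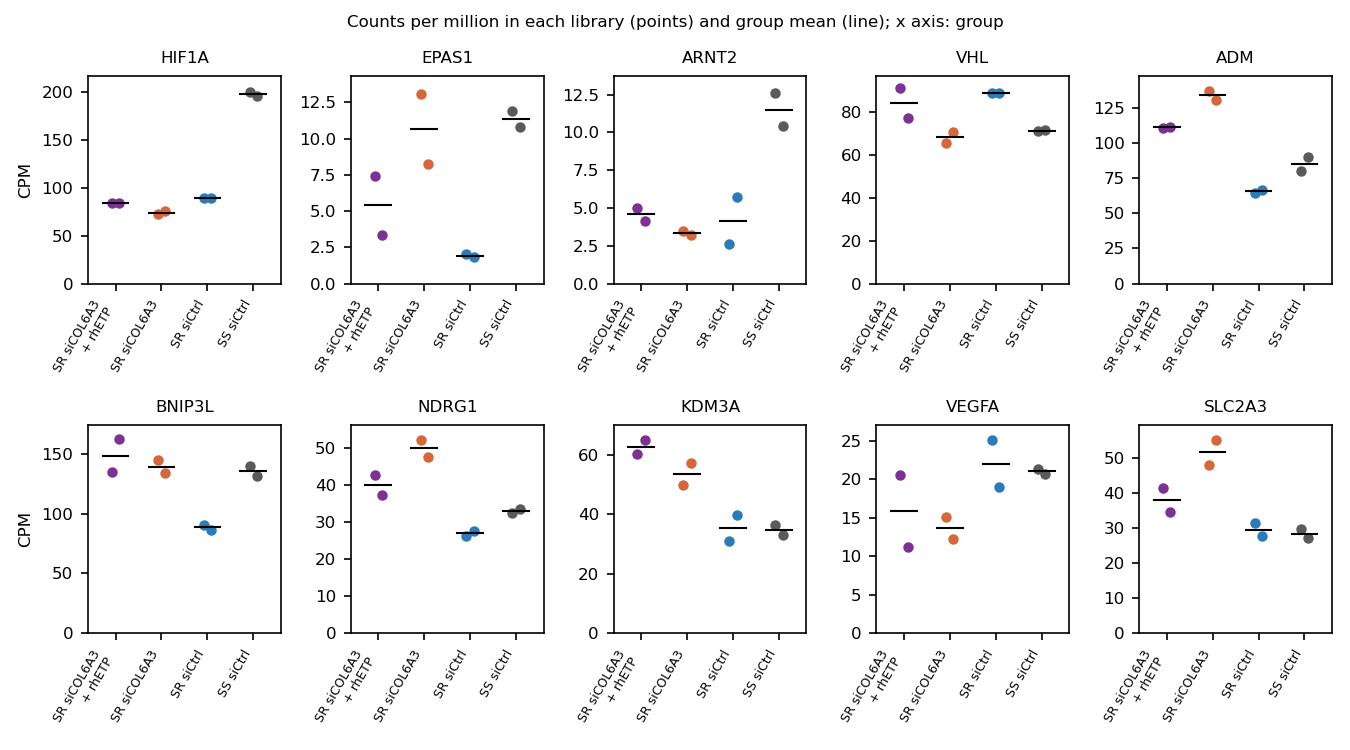
CPM of HIF factors and HIF targets in each library (points) with the group mean (line); the x axis names the group and each y axis starts at 0. The sensitive controls stand above all resistant groups for HIF1A, and the resistant controls stand lowest for EPAS1 and ADM.

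Of the HIF targets outside glycolysis, 7 of 9 were tested. Of these, 2 fell in resistant against sensitive controls, where 9.30% of all tested genes were lower. In silenced cells against resistant controls 4 rose and 1 fell, where 11.4% of all genes were higher and 10.9% lower. In silenced cells with rhETP against resistant controls the same number, 4, rose and none fell, where 10.1% of all genes were higher and 8.93% lower. None of the 7 was called when rhETP was added to silencing, where 7.77% of all genes were called. ADM, which encodes the vasodilator peptide adrenomedullin, stood at 111 and 112 CPM in silenced cells with rhETP, 137 and 131 in silenced cells, 64.8 and 66.6 in resistant controls and 80.5 and 90.4 in sensitive controls. Both silenced groups lay above all control libraries. ADM rose 2.04-fold under silencing (log2 fold change 1.03 ± 0.10 SE, adjusted p = 1.63e-07) and 1.70-fold under silencing with rhETP (log2 fold change 0.76 ± 0.10 SE, adjusted p = 9.32e-06). In resistant against sensitive controls it fell (log2 fold change -0.38 ± 0.10 SE, adjusted p = 0.0116), a call lost without resistant control replicate 1 (-0.36) or sensitive control replicate 2 (-0.29).

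BNIP3L, a mitophagy receptor, stood at 135 and 162 CPM in silenced cells with rhETP, 145 and 134 in silenced cells, 91.0 and 86.6 in resistant controls and 140.4 and 132 in sensitive controls. It was lower in resistant than in sensitive controls (log2 fold change -0.62 ± 0.10 SE, adjusted p = 1.45e-04) and higher than in resistant controls under silencing (log2 fold change 0.65 ± 0.10 SE, adjusted p = 6.28e-05) and under silencing with rhETP (log2 fold change 0.75 ± 0.10 SE, adjusted p = 1.47e-05). The resistant controls lay below all other libraries. NDRG1, a stress-response gene of the NDRG family, stood at 42.6 and 37.3 CPM in silenced cells with rhETP, 52.1 and 47.4 in silenced cells, 26.2 and 27.5 in resistant controls and 32.4 and 33.4 in sensitive controls. It rose under silencing (log2 fold change 0.89 ± 0.14 SE, adjusted p = 6.26e-05) and under silencing with rhETP (log2 fold change 0.57 ± 0.14 SE, adjusted p = 0.00487), the second call being lost without replicate 1 of the silenced cells with rhETP (0.48). KDM3A, a histone H3 lysine demethylase, stood at 60.1 and 65.0 CPM in silenced cells with rhETP, 49.7 and 57.2 in silenced cells, 30.9 and 39.6 in resistant controls and 36.4 and 32.9 in sensitive controls. It rose under silencing (log2 fold change 0.60 ± 0.14 SE, adjusted p = 0.00324), a call lost without resistant control replicate 1 (0.46), and under silencing with rhETP (log2 fold change 0.83 ± 0.14 SE, adjusted p = 1.82e-04).

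VEGFA, the angiogenic growth factor and a classic HIF target, was the 1 gene of these 7 called lower under silencing. It stood at 20.5 and 11.2 CPM in silenced cells with rhETP, 15.0 and 12.3 in silenced cells, 25.0 and 18.9 in resistant controls and 21.4 and 20.6 in sensitive controls. It fell under silencing (log2 fold change -0.69 ± 0.24 SE, adjusted p = 0.0393), but DESeq2 gave an adjusted p of 0.0569 and the call was lost without resistant control replicate 1 or either silenced library (-0.82 to -0.45). BNIP3, a mitophagy receptor related to BNIP3L, was called in no comparison and ranged over 70.6 to 105 CPM in the 8 libraries. ANKRD37, an ankyrin repeat gene, was not called either, at 0.314 to 1.85 CPM. CA9, the carbonic anhydrase most used as a hypoxia marker, had 0 counts in all 8 libraries, and CA12 had counts in 1 library of silenced cells only (0.126 CPM). A count of 0 allows a level of up to 0.0686 to 0.0972 CPM, depending on the library (3 counts per library, counting error only). Since 72.8% to 77.6% of counts of 1 to 20 were even, a fragment may have been counted more than once, and the limit, which takes each count as a separate fragment, may be too low.

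No comparison called both glucose transporters. SLC2A1 (GLUT1), the main transporter of tumour cells and a HIF target, stood at 94.4 and 119 CPM in silenced cells with rhETP, 124 and 136 in silenced cells, 136 and 163 in resistant controls and 125 and 126 in sensitive controls. It was lower in silenced cells with rhETP than in resistant controls (log2 fold change -0.49 ± 0.11 SE, adjusted p = 0.00336), a call lost without resistant control replicate 2 (-0.33) or rhETP replicate 1 (-0.33). SLC2A3 (GLUT3), a high-affinity transporter, stood at 41.5 and 34.6 CPM in silenced cells with rhETP, 48.0 and 55.2 in silenced cells, 31.3 and 27.7 in resistant controls and 29.6 and 27.2 in sensitive controls. It rose under silencing (log2 fold change 0.81 ± 0.15 SE, adjusted p = 3.13e-04), with both silenced libraries above all control libraries. SLC2A1 held 74.2% ± 0.701 of the summed FPKM of both transporters in silenced cells, against 85.1% ± 2.69 in resistant controls (SD, n = 2 each).

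In upper glycolysis, 2 of 8 tested genes fell in resistant against sensitive controls (15.8% of all tested genes were called), 1 rose and 2 fell in silenced cells against resistant controls (22.3% of all genes), none was called for rhETP added to silencing (7.77% of all genes), and 1 rose and 1 fell in silenced cells with rhETP against resistant controls (19.0% of all genes). With 8 genes, these counts lie near the shares of all genes. GPI, the isomerase after hexokinase, stood at 288 and 308 CPM in silenced cells with rhETP, 239 and 278 in silenced cells, 263 and 281 in resistant controls and 350.4 and 317 in sensitive controls. Resistant controls were lower than sensitive controls (log2 fold change -0.29 ± 0.086 SE, adjusted p = 0.0226), a call lost without sensitive control replicate 1 (-0.22) or resistant control replicate 1 (-0.25). PFKFB3, whose kinase activity makes fructose 2,6-bisphosphate, the activator of phosphofructokinase, stood at 51.8 and 49.3 CPM in silenced cells with rhETP, 48.8 and 50.7 in silenced cells, 69.9 and 67.7 in resistant controls and 90.7 and 83.6 in sensitive controls. Both groups of silenced cells lay below both control groups, and the resistant controls below the sensitive ones. It fell under silencing (log2 fold change -0.47 ± 0.11 SE, adjusted p = 0.00387) and under silencing with rhETP (log2 fold change -0.45 ± 0.11 SE, adjusted p = 0.00650). The fall in resistant against sensitive controls (log2 fold change -0.34 ± 0.11 SE, adjusted p = 0.0394) was not called when any 1 library of either control group or of the silenced cells with rhETP was left out (-0.40 to -0.28). Under silencing the call was lost without silenced replicate 1 (-0.42), and under silencing with rhETP without resistant control replicate 1 (-0.40) or rhETP replicate 2 (-0.41).

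Phosphofructokinase, the committed step, has 3 isoforms. PFKL, the liver form, stood at 119 and 113 CPM in silenced cells with rhETP, 102 and 126 in silenced cells, 87.8 and 87.3 in resistant controls and 104 and 107 in sensitive controls. It rose under silencing (log2 fold change 0.38 ± 0.11 SE, adjusted p = 0.0119) and under silencing with rhETP (log2 fold change 0.40 ± 0.11 SE, adjusted p = 0.00903), the calls being lost without silenced replicate 2 (0.25) and without rhETP replicate 1 (0.37). PFKP, the platelet form, stood at 364 and 366 CPM in silenced cells with rhETP, 326 and 359 in silenced cells, 387 and 422 in resistant controls and 482 and 447 in sensitive controls. It fell under silencing (log2 fold change -0.24 ± 0.076 SE, adjusted p = 0.0265), a call lost without resistant control replicate 2 (-0.15) or silenced replicate 1 (-0.15). PFKM, the muscle form, was called nowhere and ranged over 71.2 to 99.0 CPM. As a share of the summed FPKM of the 3 isoforms, PFKL held 23.8% and 23.1% in silenced cells with rhETP, 22.5% and 24.9% in silenced cells, 17.8% and 16.4% in resistant controls and 17.5% and 19.0% in sensitive controls. The silenced groups thus lay above both control groups. PFKP held 65.5% and 67.4% in silenced cells with rhETP, 65.1% and 63.9% in silenced cells, 70.4% and 71.4% in resistant controls and 73.1% and 71.9% in sensitive controls. PFKFB4, a relative of PFKFB3 (16.2 to 22.0 CPM), ALDOC, an aldolase of brain (0.228 to 2.27 CPM), and ALDOA were also called nowhere. ALDOA, the aldolase of muscle and most tumours, was listed at only 2.98 to 6.002 CPM in the 8 libraries. RefSeq places a second entry, LOC112694756, over the same bases and strand. It held 396 counts over all libraries, against 1281 for ALDOA. How reads that fall on both entries were counted, or whether they were dropped, is unknown here, so the ALDOA value is uncertain.

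In lower glycolysis, where each glucose has become a pair of triose phosphates, 4 of 7 tested genes fell in resistant against sensitive controls (9.30% of all tested genes were lower) and 3 fell under silencing (10.9% lower). A further comparison, rhETP added to silencing, gave 2 higher (4.41% of all genes higher), and silenced cells with rhETP against resistant controls gave 2 higher (10.1% higher). GAPDH, the dehydrogenase often used as a reference gene, was called in all 4 comparisons. It stood at 4485 and 4612 CPM in silenced cells with rhETP, 3558 and 3872 in silenced cells, 3997 and 4206 in resistant controls and 4692 and 4688 in sensitive controls. The groups did not overlap in any comparison, and the changes were small: log2 fold change -0.19 ± 0.045 SE, adjusted p = 0.00379 in resistant against sensitive controls, log2 fold change -0.14 ± 0.045 SE, adjusted p = 0.0231 under silencing, log2 fold change 0.29 ± 0.045 SE, adjusted p = 1.88e-04 for rhETP added to silencing and log2 fold change 0.15 ± 0.044 SE, adjusted p = 0.0210 in silenced cells with rhETP against resistant controls. The first was not called without resistant control replicate 1 (-0.16), the second without either resistant control or silenced replicate 1 (-0.15 to -0.061), and the last without resistant control replicate 1 or either rhETP library (0.13 to 0.17). RefSeq names 65 GAPDH pseudogenes, none of which has a row in the count table, so reads shared with them cannot be told apart.

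PGAM1, the phosphoglycerate mutase, stood at 445 and 436 CPM in silenced cells with rhETP, 288 and 336 in silenced cells, 398 and 428 in resistant controls and 387 and 419.7 in sensitive controls. The silenced cells lay below all other libraries. RefSeq names 13 PGAM1 pseudogenes, and only 1 has a row in the count table, so reads shared with the others cannot be told apart. PGAM1 fell under silencing (log2 fold change -0.40 ± 0.080 SE, adjusted p = 7.57e-04) and rose when rhETP was added (log2 fold change 0.50 ± 0.080 SE, adjusted p = 3.42e-04), both held with any 1 library left out, and silenced cells with rhETP against resistant controls gave 0.093 (adjusted p = 0.485). PKM, pyruvate kinase, stood at 2047 and 2145 CPM in silenced cells with rhETP, 1931 and 2153 in silenced cells, 1908 and 1982 in resistant controls and 3094 and 2961 in sensitive controls. It was 1.56-fold lower in resistant than in sensitive controls (log2 fold change -0.64 ± 0.054 SE, adjusted p = 1.08e-08), held with any 1 library left out, and the 6 resistant libraries lay between 1908 and 2153 CPM. ENO1, the main enolase, stood at 2158 and 2224 CPM in silenced cells with rhETP, 1805 and 2069 in silenced cells, 2016 and 2083 in resistant controls and 2491 and 2343 in sensitive controls. Resistant controls held less than sensitive controls (log2 fold change -0.24 ± 0.057 SE, adjusted p = 0.00529), lost without sensitive or resistant control replicate 1 (-0.22 to -0.19).

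ENO2, the neuronal enolase, stood at 6.93 and 9.19 CPM in silenced cells with rhETP, 9.20 and 9.36 in silenced cells, 12.0 and 7.99 in resistant controls and 26.9 and 25.3 in sensitive controls. It was 2.62-fold lower in resistant than in sensitive controls (log2 fold change -1.39 ± 0.23 SE, adjusted p = 1.69e-04), but ENO1 made up at least 98.5% of the summed enolase FPKM in every library. TPI1, triose phosphate isomerase, stood at 470.1 and 519 CPM in silenced cells with rhETP, 451 and 424 in silenced cells, 512 and 509.7 in resistant controls and 559 and 526 in sensitive controls. It fell under silencing (log2 fold change -0.22 ± 0.071 SE, adjusted p = 0.0259), lost when any 1 of the 4 libraries compared was left out (-0.25 to -0.15). PGK1, phosphoglycerate kinase, stood at 596 and 619.9 CPM in silenced cells with rhETP, 555 and 559 in silenced cells, 492 and 528 in resistant controls and 555 and 487 in sensitive controls. It rose in silenced cells with rhETP against resistant controls (log2 fold change 0.25 ± 0.072 SE, adjusted p = 0.0152), lost without resistant control replicate 1 or either rhETP library (0.22 to 0.28).

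**Figure D4:**
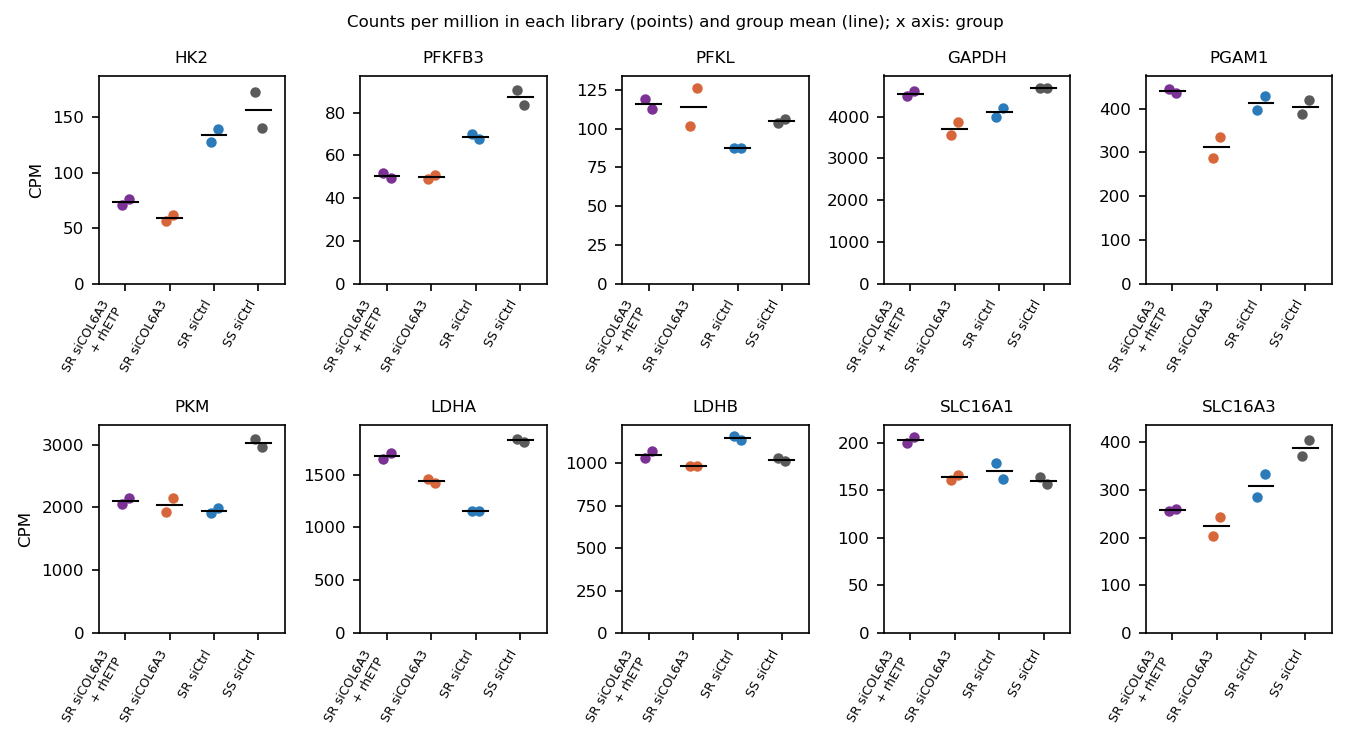
CPM of 10 glycolysis genes and lactate carriers in each library (points) with the group mean (line); the x axis names the group and each y axis starts at 0. Resistant controls stand lowest for LDHA and the sensitive controls highest for PKM, while PGAM1 is lowest in silenced cells.

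LDHA, the lactate dehydrogenase subunit that favours pyruvate to lactate and is a HIF target, was called in all 4 comparisons. It stood at 1651 and 1702 CPM in silenced cells with rhETP, 1462 and 1421 in silenced cells, 1157 and 1159 in resistant controls and 1841 and 1807 in sensitive controls. The 4 groups did not overlap, with resistant controls lowest, then silenced cells, silenced cells with rhETP and sensitive controls. LDHA was 1.58-fold lower in resistant than in sensitive controls (log2 fold change -0.66 ± 0.051 SE, adjusted p = 2.92e-09). It rose under silencing (log2 fold change 0.32 ± 0.051 SE, adjusted p = 8.19e-05), again when rhETP was added (log2 fold change 0.22 ± 0.051 SE, adjusted p = 0.00868), and in silenced cells with rhETP against resistant controls (log2 fold change 0.53 ± 0.051 SE, adjusted p = 1.14e-07). The rise on adding rhETP was lost without silenced replicate 2 (0.19) or rhETP replicate 2 (0.20), and the other calls held with any 1 library left out.

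LDHB, the subunit that favours lactate to pyruvate, moved the other way where both were called. It stood at 1032 and 1071 CPM in silenced cells with rhETP, 986 and 987 in silenced cells, 1159 and 1138 in resistant controls and 1029.9 and 1011 in sensitive controls. It was higher in resistant than in sensitive controls (log2 fold change 0.17 ± 0.056 SE, adjusted p = 0.0394) and the only gene of the 15 called there that rose. It fell under silencing (log2 fold change -0.22 ± 0.056 SE, adjusted p = 0.00580). The first call was lost without any 1 library, except those of silenced cells without rhETP (0.15 to 0.18), and the second without resistant control replicate 1 (-0.18) or 2 (-0.21). LDHA held 48.1% and 47.9% of the summed LDHA and LDHB FPKM in silenced cells with rhETP, 46.2% and 45.5% in silenced cells, 36.6% and 37.1% in resistant controls and 50.9% and 50.9% in sensitive controls. The resistant control libraries lay below all others. As a mean share of counts, not per length, LDHA held 61.5% in silenced cells with rhETP and 59.4% in silenced cells. It held 50.2% in resistant controls, again the lowest, and 64.1% in sensitive controls. In sensitive controls LDHA thus made up more by both measures. In the resistant groups, which subunit made up more on average depended on the measure.

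SLC16A3 (MCT4), the lactate exporter induced by HIF, stood at 257 and 259 CPM in silenced cells with rhETP, 204 and 243 in silenced cells, 286 and 333 in resistant controls and 370.3 and 405 in sensitive controls. Resistant controls had less of it than sensitive controls (log2 fold change -0.33 ± 0.092 SE, adjusted p = 0.0165), lost without resistant control replicate 1 or sensitive control replicate 2 (-0.26 to -0.23), and silenced cells had less than resistant controls (log2 fold change -0.47 ± 0.092 SE, adjusted p = 6.79e-04). CSNK1D overlaps SLC16A3 in RefSeq and held 62751 counts over all libraries, so reads of the 2 genes may be mixed. SLC16A1 (MCT1), the carrier for lactate uptake and export, stood at 199.9 and 206 CPM in silenced cells with rhETP, 161 and 167 in silenced cells, 179 and 162 in resistant controls and 164 and 157 in sensitive controls. It rose when rhETP was added to silencing (log2 fold change 0.31 ± 0.087 SE, adjusted p = 0.0306) and in silenced cells with rhETP against resistant controls (log2 fold change 0.25 ± 0.087 SE, adjusted p = 0.0469), the first lost when any 1 of the 4 libraries compared was left out (0.28 to 0.33) and the second without resistant control replicate 2 or either rhETP library (0.20 to 0.27). PDK1, the kinase that shuts pyruvate dehydrogenase, ranged over 17.7 to 33.1 CPM and was called nowhere, with log2 fold changes of 0.52 (adjusted p = 0.0561) for resistant against sensitive controls and -0.40 (adjusted p = 0.125) under silencing.

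**Figure D5:**
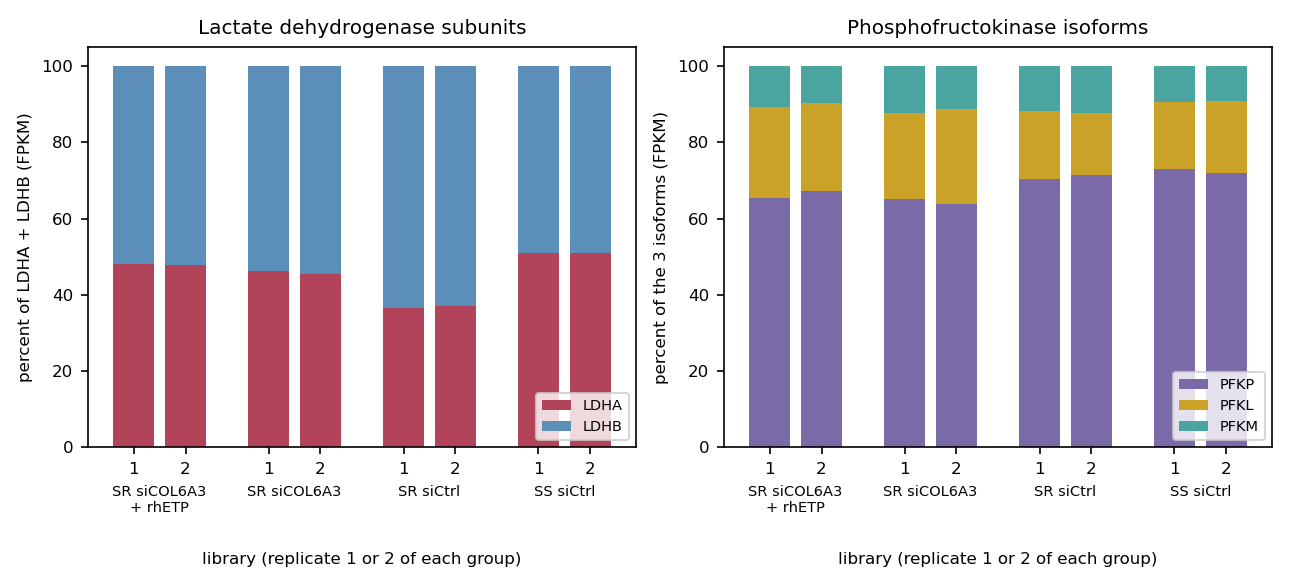
Share of each lactate dehydrogenase subunit (left) and phosphofructokinase isoform (right) in the summed FPKM of its family, in percent, for each library (x axis, 2 replicates a group). The LDHA share is 36.6% and 37.1% in the resistant controls and 45.5% or more in the other 6 libraries.

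Of 42 other hypoxia-pathway genes, 40 were tested. Of these, 5 rose and 11 fell in resistant against sensitive controls, 10 rose and 6 fell under silencing, 6 rose and 2 fell when rhETP was added, and 9 rose and 4 fell in silenced cells with rhETP against resistant controls, with median log2 fold changes of -0.15, 0.037, 0.024 and 0.088 in turn. These were 16, 16, 8 and 13 of the 40 genes, where 15.8%, 22.3%, 7.77% and 19.0% of all tested genes were called in the same comparisons. LOX, the collagen crosslinking oxidase, fell in resistant against sensitive controls (log2 fold change -2.39 ± 0.11 SE, adjusted p = 2.77e-13), as did AK4, a mitochondrial adenylate kinase (log2 fold change -2.30 ± 0.47 SE, adjusted p = 0.00125). ANGPTL4, a lipoprotein lipase inhibitor, fell under silencing (log2 fold change -1.96 ± 0.18 SE, adjusted p = 7.41e-08) and rose when rhETP was added (log2 fold change 2.28 ± 0.18 SE, adjusted p = 3.59e-08). P4HA2, a collagen prolyl hydroxylase, rose under silencing (log2 fold change 1.11 ± 0.16 SE, adjusted p = 2.39e-05) and under silencing with rhETP (log2 fold change 1.13 ± 0.16 SE, adjusted p = 2.30e-05). HMOX1, heme oxygenase 1, rose in silenced cells with rhETP against resistant controls (log2 fold change 1.29 ± 0.13 SE, adjusted p = 3.23e-07). AK4 rose when rhETP was added (log2 fold change 1.65 ± 0.47 SE, adjusted p = 0.0332), a call lost when any 1 of the 4 libraries compared was left out (1.50 to 1.78).

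Of 56 other genes of glucose metabolism, 47 were tested. Of these, 2 rose and 9 fell in resistant against sensitive controls, 5 rose and 4 fell under silencing, 1 rose and 3 fell when rhETP was added, and 5 rose and 7 fell in silenced cells with rhETP against resistant controls, with median log2 fold changes of -0.042, -0.064, -0.044 and -0.073 in turn. The shares called, 23.4%, 19.1%, 8.51% and 25.5%, lay near those of all tested genes under silencing (22.3%) and for added rhETP (7.77%), and stood beside 15.8% in resistant against sensitive controls and 19.0% in silenced cells with rhETP against resistant controls. SLC2A10, a facilitative glucose transporter, fell in resistant against sensitive controls (log2 fold change -4.76 ± 1.30 SE, adjusted p = 0.0135), lost without replicate 1 of either group (-4.09 to -3.79); resistant controls held 0 and 10 counts, so the size is imprecise. PDK3, a pyruvate dehydrogenase kinase, fell in the same comparison (log2 fold change -2.65 ± 0.56 SE, adjusted p = 0.00192). Under silencing PDP1, the phosphatase that opposes such kinases (log2 fold change 0.71 ± 0.092 SE, adjusted p = 6.53e-06), and TIGAR, a bisphosphatase of glycolytic sugars (log2 fold change 0.70 ± 0.13 SE, adjusted p = 4.02e-04), rose. SLC2A6, a glucose transporter, fell when rhETP was added to silencing (log2 fold change -1.02 ± 0.21 SE, adjusted p = 0.00349) and in silenced cells with rhETP against resistant controls (log2 fold change -0.95 ± 0.21 SE, adjusted p = 0.00255), both lost without rhETP replicate 1 (-0.88 and -0.81). PFKFB2, a relative of PFKFB3, fell when rhETP was added (log2 fold change -0.57 ± 0.13 SE, adjusted p = 0.00788), lost without silenced replicate 2 or either rhETP library (-0.59 to -0.53). PDP2, a relative of PDP1, fell in silenced cells with rhETP against resistant controls (log2 fold change -0.84 ± 0.13 SE, adjusted p = 3.96e-05).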

How the data were processed

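Poly(A) RNA of 8 libraries was measured, 2 in each of 4 groups given by the labels. The authors deposited counts per gene, not normalized, and a separate table of FPKM computed by the authors. Per the submitters' processing notes the genome build is GRCh38. The aligner, the counter, its annotation and its use of strand are not stated in what was used here. Genes that overlap others (among them ALDOA, BNIP3, PFKM and SLC16A3) and genes with many pseudogene copies (GAPDH, BNIP3, PGAM1) are uncertain. Among counts of 1 to 20, 72.8% to 77.6% were even, against 49.6% to 50.9% of counts of at least 500, as would be seen where both reads of a pair are counted, which was not tested, and halved counts were therefore tried. 1 unnamed entry had 0 counts and was left out.

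The count model used edgeR 4.0.16 under R 4.3.3: filterByExpr kept 15684 genes, TMM factors were 0.981 to 1.02, and 1 quasi-likelihood model with a coefficient for each group was fitted to all 8 libraries (4 residual degrees of freedom, common biological coefficient of variation 0.220, prior degrees of freedom 17.4). Tests were two-sided, with Benjamini-Hochberg adjustment within a comparison over all genes tested. CPM are counts relative to the TMM-scaled library total. A standard error is the absolute log2 fold change divided by the square root of F, and means carry the SD of 2 libraries. Shares of isoforms use FPKM, which divides by length and was not tested by a count model; they were compared by exact permutation. Precision follows the library totals of 30461668 to 44116043 counts and, more, the spread between replicates; the labels call these biological replicates, and nothing further says whether cultures and transfections were separate. No 2 libraries of a group agreed within counting noise (chi-square per degree of freedom 15.0 to 18.4). Such a spread cannot show that libraries are independent. Each was counted as 1 sample because of the labels.

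Positions, overlapping entries, pseudogene names and promoter windows come from RefSeq tables of GRCh38.p14, which held 26998 of the 28278 symbols. The 40 genes and all gene lists were chosen with earlier results of these data known. Values in every library are given for HK1, HK2, HKDC1, HIF1A, EPAS1 and each gene called in at least 1 comparison, and the others by range; of the other pathway lists the largest called changes of each comparison are named. The fit was also run on counts simulated from its own fitted spread, with changes set in some genes. Such a run cannot check how the real replicates vary, and no result here rests on it. Alternatives were DESeq2 1.42.0, RLE size factors, no filter, a filter of at least 50 counts in every library of a group, a replicate block, halved counts, a fit of only the 2 groups compared and each library left out in turn. The view of genes averaging 1000 counts or more was added after the data were seen.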

Additional observations from a re-analysis of the deposited data

How the results depend on the processing

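No called value of the 40 genes changed sign under any alternative. Of the 51 called values, all 51 kept their call with RLE size factors and with the stricter filter, 50 with DESeq2 and with the replicate block, 48 without a filter and with halved counts, and 47 when only the 2 groups compared were fitted. Leaving out each library in turn, 23 of the 51 kept their call throughout and 28 lost it at least once, most often without resistant control replicate 1 (18 lost); a group left with 1 library is assumed to vary like the others. The values lost outside left-out libraries were those of HIF1A (0.103 without a filter, 0.0627 halved, 0.0774 in the fit of 2 groups, as adjusted p), VEGFA (0.0569 with DESeq2) and GAPDH (0.0680 without a filter, 0.0603 halved, 0.0626 in the fit of 2 groups) under silencing, and of LDHB (0.0622, 0.0501 and 0.0544 under the same 3 settings) and PFKFB3 (0.0604 in the fit of 2 groups) in resistant against sensitive controls; the cause was not tested.

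For rhETP added to silencing, 4 genes were called (10.8%, where 7.77% of all tested genes were called). With DESeq2 8 were called (6 higher, 2 lower), or 22.9%, where 13.7% of all genes were called. Without a filter 9 were called (6 higher, 3 lower), or 23.1%, where 7.73% of all genes were called. How near the listed genes lay to all genes thus depended on the processing, and the cause was not tested. With 1 library left out, the listed genes called ranged over 7 to 15 in resistant against sensitive controls, 12 to 18 under silencing, 2 to 4 for added rhETP and 7 to 16 in silenced cells with rhETP against resistant controls. All genes called ranged over 1603 to 2302, 2208 to 3803, 441 to 1393 and 1730 to 3267 in the same order of comparisons, from 2480, 3505, 1218 and 2981 with all libraries.

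The samples share only a replicate number, and deviations of same-numbered libraries correlated at -0.027 to 0.036. With the replicate number as a block, 16, 18, 6 and 14 of the listed genes and 2606, 3618, 1368 and 3113 of all genes were called in the 4 comparisons in the same order; HIF1A under silencing had an adjusted p of 0.0512.

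As shares of counts, not per length, silenced cells with rhETP held 62.2% HK1, 35.5% HK2 and 2.31% HKDC1. Silenced cells held 69.5% HK1, 27.7% HK2 and 2.73% HKDC1, and resistant controls 52.6% HK1, 45.7% HK2 and 1.75% HKDC1. Sensitive controls held 34.7% HK1, 39.98% HK2 and 25.3% HKDC1, so the 3 isoforms stood less close together there than per length. With 1 library of a group left out, the per-length shares were 63.9% to 67.3% HK1, 30.04% to 32.3% HK2 and 2.65% to 3.77% HKDC1 in silenced cells with rhETP, and 71.8% to 72.8% HK1, 23.5% to 24.4% HK2 and 3.69% to 3.79% HKDC1 in silenced cells. They were 55.3% to 57.9% HK1, 39.9% to 42.0% HK2 and 2.21% to 2.77% HKDC1 in resistant controls, and 33.8% to 34.8% HK1, 31.1% to 34.6% HK2 and 31.6% to 34.2% HKDC1 in sensitive controls.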
